A study of Mus musculus with 6 samples.

Results

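The genes described here are 10 immediate early and related genes: the NR4A receptors *Nr4a1*, *Nr4a2* and *Nr4a3*, the zinc finger factors *Egr1*, *Egr2* and *Egr3*, their co-repressors *Nab1* and *Nab2*, and the early response genes *Ier2* and *Ier3*. They were chosen by name, with earlier results of these data known, and looked up by Ensembl identifier among 47643 genes of the count table. Of the 10, 9 had at least 10 reads summed over the 6 samples and were tested among the 11877 genes that passed this filter. *Egr3* had no read in any sample.

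The samples were splenic CD4+ T cells of Tg4 Tiger *Nr4a3*-Tocky mice, in which a transgenic T cell receptor recognises a myelin basic protein (MBP) peptide, *Il10* is marked by GFP, and *Nr4a3* drives a fluorescent Timer protein that is blue when newly made and matures to red. All mice had received 80 μg of the 4Y form of the peptide under the skin and, 24 h later, 800 μg of antibody into the peritoneum: an isotype pool of rat IgG1 and rat IgG2a, anti-PD1 (clone 29F.1A12), or anti-*Lag3*. A second dose of 8 μg of peptide followed after 30 min, and 4 h after it CD4+ cells that were positive for both Timer colours were sorted. The comparison asks how blocking either co-inhibitory receptor altered the RNA of cells that responded to the second dose. There were 2 samples in each of the 3 groups, named as biological duplicates in the submitters' design text. According to the methods, replicate mice were processed and stained separately for sorting, each with its own CD4 fluorochrome, and sorted in parallel. P-values measure the spread between these samples. In the edgeR fit, the spread of a gene is drawn mostly from that of all tested genes and only partly from its own values. According to the methods, a further replicate batch of 3 samples, sorted and processed together, was excluded as an outlier, and it was not used here. All groups therefore share the transgenic receptor, the GFP allele, the Timer reporter and both peptide doses, and all 6 samples had been selected for activity of the *Nr4a3* reporter before the RNA was measured. The construct of the reporter, and whether its transcripts carry the 3′ end of *Nr4a3*, are not given in the sources used here.

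NR4A proteins are nuclear receptors for which no natural hormone is established, so that their activity is set mainly by how much of them is made. In T cells, receptor engagement induces them within the first hours through calcium, calcineurin and NFAT, together with MEF2 and CREB family factors. EGR proteins are induced through the ERK kinases and the serum response factor with its ELK partners, and *Egr2* and *Egr3* also through NFAT. NAB1 and NAB2 bind EGR proteins and repress transcription at EGR targets, and *Nab2* is itself a known EGR target. In T cells, EGR2, EGR3 and the NR4A factors are known for restraining effector functions after strong or repeated stimulation.

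The promoters of the NR4A paralogues, of *Egr2* and of *Nab1* are shown because the members differ in which of the binding sites of these factors they carry. The sequences are RefSeq promoters on GRCm38.p6, 5′ to 3′ on the strand of the gene, from 250 bases before the transcription start to the base before it. Capitals mark the CRE half-site TGACG (the core of the CRE, bound by CREB and ATF proteins), the EGR site GCGNGGGCG, and the CArG box of the serum response factor, on either strand.
Nr4a3, chr4:48045055-48045304 (plus strand): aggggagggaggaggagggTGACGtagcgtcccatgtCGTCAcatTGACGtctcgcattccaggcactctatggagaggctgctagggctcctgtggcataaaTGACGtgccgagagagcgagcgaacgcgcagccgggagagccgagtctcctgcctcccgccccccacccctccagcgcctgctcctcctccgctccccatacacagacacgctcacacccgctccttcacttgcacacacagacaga
Nr4a1, chr15:101266596-101266845 (plus strand): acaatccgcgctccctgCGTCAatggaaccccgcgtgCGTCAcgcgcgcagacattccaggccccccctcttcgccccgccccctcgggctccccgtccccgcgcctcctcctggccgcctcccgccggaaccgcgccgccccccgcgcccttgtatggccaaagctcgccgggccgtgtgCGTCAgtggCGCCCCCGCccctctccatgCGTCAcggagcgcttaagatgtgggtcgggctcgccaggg
Nr4a2, chr2:57124004-57124253 (minus strand): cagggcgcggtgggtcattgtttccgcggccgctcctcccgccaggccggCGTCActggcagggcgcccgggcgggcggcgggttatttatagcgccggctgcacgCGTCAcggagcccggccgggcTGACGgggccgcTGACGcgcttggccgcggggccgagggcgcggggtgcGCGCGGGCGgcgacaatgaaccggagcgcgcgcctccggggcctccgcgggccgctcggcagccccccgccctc
Egr2, the third of 5 starts, chr10:67537619-67537868 (plus strand): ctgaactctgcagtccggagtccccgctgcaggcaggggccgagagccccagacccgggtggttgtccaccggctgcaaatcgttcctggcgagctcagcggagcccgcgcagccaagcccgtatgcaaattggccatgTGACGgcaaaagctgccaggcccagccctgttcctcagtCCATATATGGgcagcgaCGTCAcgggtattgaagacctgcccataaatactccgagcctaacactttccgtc
Nab1, chr1:52500449-52500698 (minus strand): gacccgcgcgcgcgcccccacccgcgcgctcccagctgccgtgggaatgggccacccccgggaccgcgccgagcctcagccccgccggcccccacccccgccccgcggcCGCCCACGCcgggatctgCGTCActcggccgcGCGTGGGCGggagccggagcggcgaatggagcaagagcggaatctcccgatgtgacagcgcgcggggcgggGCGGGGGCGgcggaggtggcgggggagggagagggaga
Motifs were searched over 300 bases, the 250 before the start and those from it on, in the members and in all promoters. The promoters of *Egr1*, *Egr3* and *Ier2* were not available and were not searched. Every match in the members looked up lay before the start. The promoters of *Nr4a3*, *Nr4a1* and *Nr4a2* each held 4 CRE half-sites, and at least 4 were found in 0.231% of the 32851 promoters of the same length. The half-site was added to the motifs after the promoters had been read. Its median number per promoter was 0, and 20.8% of promoters held at least 1.

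The full CRE TGACGTCA, which contains the half-site on both strands, was in none of the promoters looked up for the members and was in 1.79% of all promoters. An EGR site was found once before *Nr4a1*, from base −60 to −52, once before *Nr4a2*, from base −74 to −66, and 3 times before *Nab1*, compared with 5.55% of all promoters holding any. *Nr4a3* had none in this window. Of the 5 *Egr2* starts looked up, 4 had a CArG box, which 1.63% of all promoters held. The windows of starts 3, 4 and 5 overlap and hold the same box, so these matches are not independent. The printed start also had 2 CRE half-sites, a number reached or passed by 5.01% of promoters. The *Nab2* and *Ier3* promoters had none of the motifs searched, and neither the NBRE AAAGGTCA, to which NR4A proteins bind, nor the AP-1 site TGANTCA was found before any member looked up. These 2 motifs were in 1.51% and 7.81% of all promoters. A match describes letters in the window and was not tested for binding.

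**Figure D1:**
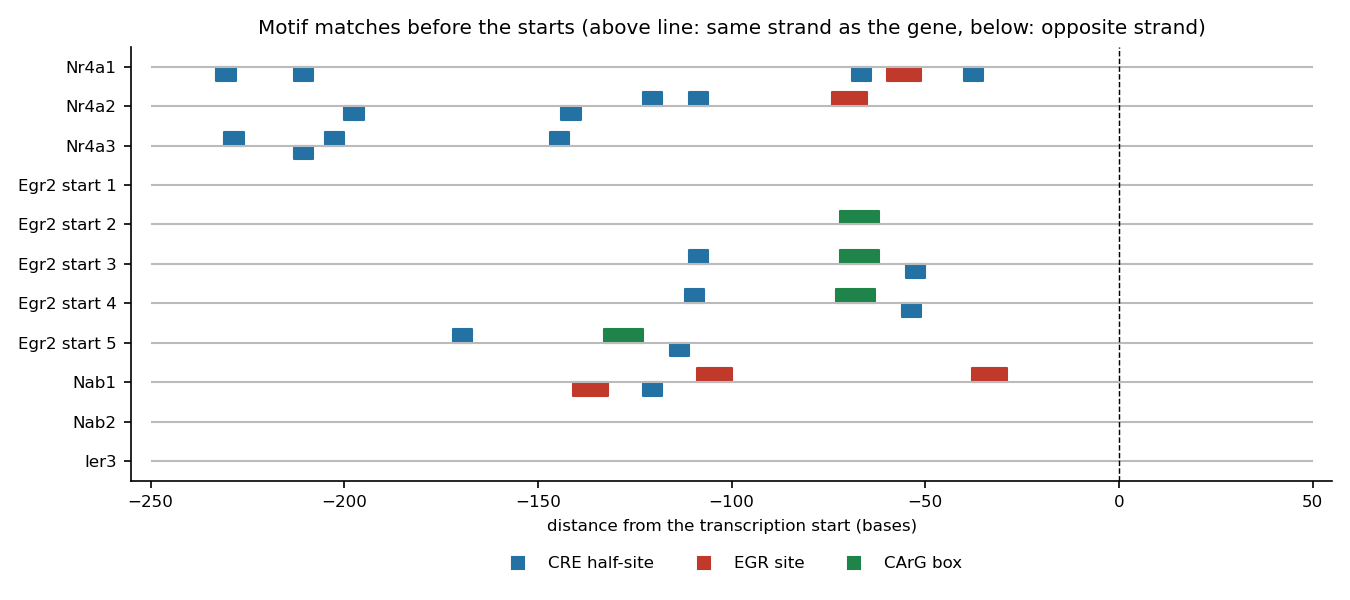
Motif matches in the promoter windows of the members looked up, by distance from the transcription start in bases. Each start has a row, with coloured blocks for each motif above (same strand) or below (opposite strand) the line. *Egr1*, *Egr3* and *Ier2* were not searched. The NR4A genes carry 4 blue CRE half-sites each, *Nab1* carries 3 red EGR sites, and the *Nab2* and *Ier3* rows are empty. Of the 5 *Egr2* starts, 4 carry a green CArG box, which is the same box in starts 3, 4 and 5.

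No member passed the test in any comparison. Between anti-PD1 and isotype, 0 of 9 members had an adjusted p under 0.05 (edgeR quasi-likelihood test, Benjamini-Hochberg over all genes tested), beside 0.901% of all genes. Without adjustment, 3 of 9 members had a p under 0.05 (*Nr4a3* and *Egr1*, lower with anti-PD1, and *Nab1*, higher), beside 8.12% of all genes. The 2 groups did not overlap for 6 of 9 members, beside 37.4% of all genes, with 3 of the 6 above isotype and 3 below it. Between anti-*Lag3* and isotype, 0 of 9 passed beside 0.0421% of all genes, 0 of 9 had an unadjusted p under 0.05 beside 5.96%, and 2 of 9 did not overlap beside 34.6%. Between anti-PD1 and anti-*Lag3*, 0 of 9 passed beside 0.303%, 1 of 9 had an unadjusted p under 0.05 (*Nab2*, lower with anti-PD1) beside 6.53%, and 5 of 9 did not overlap beside 35.9%. The median log2 fold change over the 9 members was −0.21, 0.11 and −0.32 in the 3 comparisons, where the medians over all tested genes were 0.004, 0.001 and −0.002. The comparisons share samples, so their counts are not independent of each other. Because the members were chosen with earlier results of these data known, these shares describe the genes chosen. They do not test whether the members responded more than other genes.

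Levels are given in CPM, which are counts brought to the same library size with the TMM factors of edgeR, and differences as log2 fold changes with the standard error (SE) and 95% confidence interval (CI) of the edgeR fit to all 6 samples. The libraries count the 3′ ends of polyadenylated RNA, so that values are compared between samples for the same gene, and levels were not compared between genes. Total counts ran from 2107715 to 2648920 per sample, and 3 counts, taken as the smallest number detectable, correspond to 1.11 to 1.44 CPM. Such limits take counting error into account and nothing else, because PCR copies of a molecule could not be recognised. Summed over 8 T cell markers, *Cd4* and the Cd3 genes among them, the isotype samples had 2160 and 2380 CPM, the anti-PD1 samples 1950 and 2120 CPM, and the anti-*Lag3* samples 2360 and 2180 CPM. All 8 were detected in every group, and 6 of 8 had a lower mean with anti-PD1 than with isotype.

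**Figure D2:**
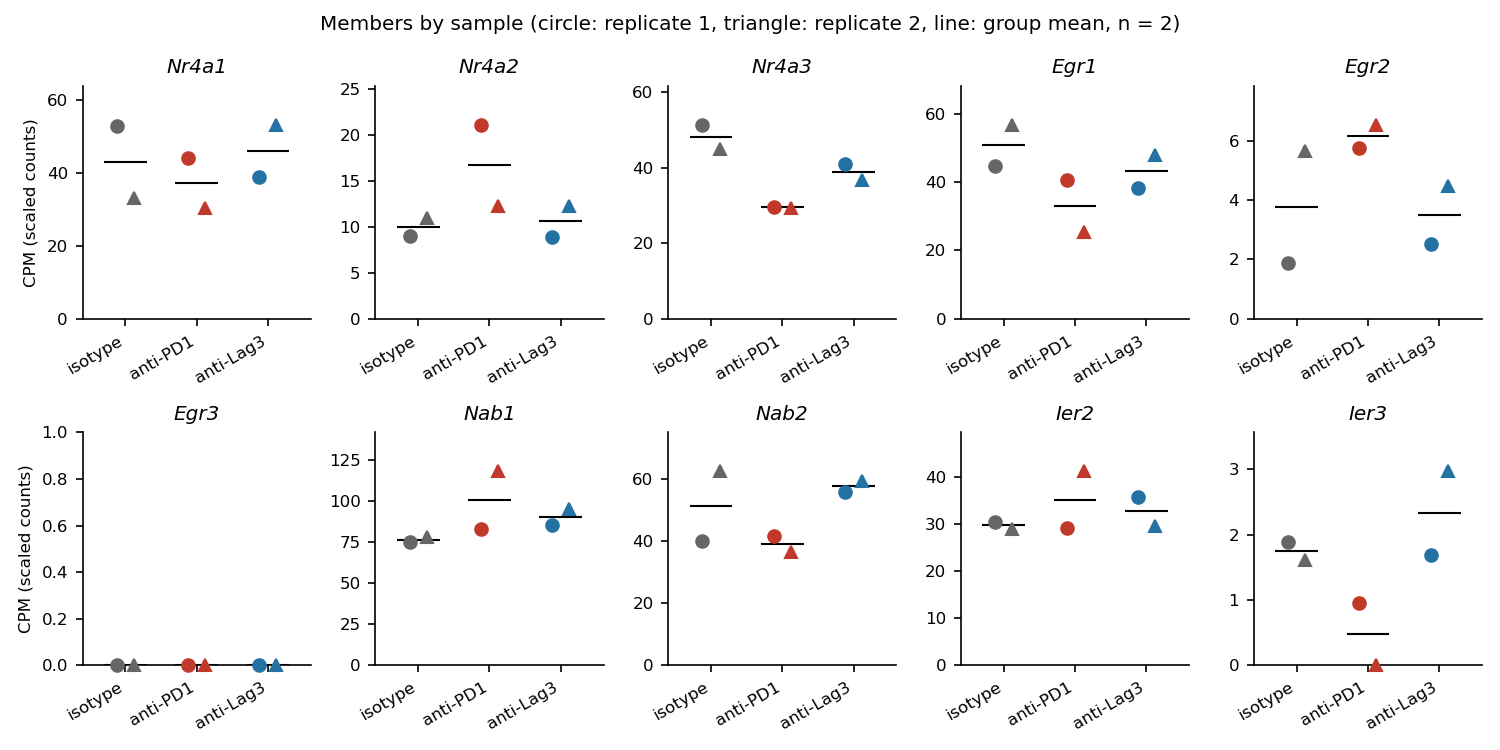
Level of each of the 10 genes in CPM (vertical axes, each starting at 0) in the 2 isotype, 2 anti-PD1 and 2 anti-*Lag3* samples, with circles for replicate 1, triangles for replicate 2 and a line at the group mean. *Nr4a3* is the gene with a gap between every pair of groups, and *Egr3* lies at 0 throughout.

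*Nr4a3* (ENSMUSG00000028341, chr4:48045153-48086447, plus strand), whose product is also known as NOR1 and whose activation the sorted reporter records, had 51.4 and 45.1 CPM in the isotype samples, 29.7 and 29.4 CPM in the anti-PD1 samples, and 40.9 and 36.8 CPM in the anti-*Lag3* samples. The order of the groups was isotype, anti-*Lag3*, anti-PD1, and no group overlapped its neighbour. Means were 48.2 ± 4.44, 38.8 ± 2.92 and 29.6 ± 0.189 CPM (SD, n = 2 each) in that order. The share of all genes with a gap between every pair of groups was not counted. For a single pair of groups, 34.6% to 37.4% of all genes did not overlap. With anti-PD1 the level was 0.615 times that with isotype (95% CI 0.445 to 0.850), a log2 fold change of −0.70 (SE 0.23, 95% CI −1.17 to −0.24, unadjusted p = 0.00417, adjusted p = 0.195, edgeR). At this spread, a log2 fold change of 0.89 in size would have been needed for a call. With anti-*Lag3* the log2 fold change from isotype was −0.31 (SE 0.22, 95% CI −0.76 to 0.14), and between anti-PD1 and anti-*Lag3* it was −0.39 (SE 0.23, 95% CI −0.86 to 0.08). Its sign between anti-PD1 and isotype was negative in all 16 alternative settings, where the adjusted p ran from 0.147 to 0.738. In bulk samples, fewer cells with a transcript and less of it per cell cannot be told apart. *Nr4a3* is also the gene on whose reporter every sample was gated, so that cells with little reporter were not measured in any group. The paper reports, from flow cytometry of responding cells, more of the blue Timer protein with anti-PD1 than with isotype or anti-*Lag3*. The Timer values are of a reporter protein and those here are of RNA, and how they relate was not tested.

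The genes whose pattern over the 6 samples was nearest to that of *Nr4a3* were *Itpr2*, an inositol trisphosphate receptor that releases calcium from stores, *Ifi203*, an interferon-activated gene, *Fyb*, an adaptor of T cell receptor signaling, *Pou2f2*, the transcription factor OCT2, and *Jtb*. Their root mean square differences from *Nr4a3* in log2 CPM, each gene centred on its own mean, were 0.045, 0.066, 0.068, 0.069 and 0.077 over 6 samples, compared with a median of 0.324 over the 4463 other genes with at least 50 counts in every sample. These genes were picked for the smallest differences, so that lying under the median follows from the choice. Whether they are regulated together with *Nr4a3* was not tested. *Itpr2*, the nearest, had 122 and 108 CPM with isotype, 69.0 and 65.0 CPM with anti-PD1, and 92.4 and 87.7 CPM with anti-*Lag3*. Of the other members, 5 had enough counts to be compared (*Nr4a1*, *Egr1*, *Nab1*, *Nab2* and *Ier2*), and none of them was among these nearest genes. *Nr4a2*, *Egr2* and *Ier3* were too low to enter.

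The summed markers of macrophages, B cells and cytotoxic or natural killer cells, like those of T cells, were lower in both anti-PD1 samples than in both isotype samples. Macrophage markers (7 genes, of which 6 had a lower mean with anti-PD1 and *Cd68* a higher one) summed to 49.1 to 56.5 CPM with isotype, 15.8 to 30.6 CPM with anti-PD1, and 25.3 to 27.1 CPM with anti-*Lag3*. B cell markers (6 genes, of which 5 had a lower mean with anti-PD1 and *Cd79a* had no read in any sample) summed to 112 to 128 CPM with isotype, 50.7 to 62.2 CPM with anti-PD1, and 81.7 to 122 CPM with anti-*Lag3*. Markers of cytotoxic or natural killer cells (4 genes, of which 3 had a lower mean with anti-PD1 and *Ncr1* a higher one) summed to 48.3 to 56.0, 29.8 to 34.9 and 32.7 to 33.7 CPM in the same groups. Most of these reads were of *Cd8b1*, with 105 and 103 with isotype, 67 and 68 with anti-PD1, and 70 and 83 with anti-*Lag3*. The natural killer cell markers *Klrb1c* and *Ncr1* had at most 3 reads in a sample. Macrophages and B cells also express NR4A and EGR genes, and the part of these cells in the values of the members was not tested. Dendritic cell markers (4 genes, *Siglech* at 0 in all samples) summed to at most 1.88 CPM, and neutrophil markers (2 genes) to 7.53 and 19.7 CPM with isotype, 6.70 and 5.31 CPM with anti-PD1, and 4.21 and 1.48 CPM with anti-*Lag3*. Erythroid markers (2 genes) overlapped between the groups, at 31.1 and 23.7 CPM with isotype, 9.09 and 24.9 CPM with anti-PD1, and 12.6 and 29.0 CPM with anti-*Lag3*.

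Neither paralogue of *Nr4a3* had its order of groups. *Nr4a1* (ENSMUSG00000023034, chr15:101254269-101274795, plus strand), which encodes NUR77, had 52.8 and 33.0 CPM with isotype, 44.1 and 30.3 CPM with anti-PD1, and 38.8 and 53.1 CPM with anti-*Lag3*. All 3 groups overlapped each other, and the gap between replicates was larger than that between group means. Its log2 fold change between anti-PD1 and isotype was −0.21 (SE 0.25, 95% CI −0.71 to 0.30), and that between anti-*Lag3* and isotype was 0.11 (SE 0.24, 95% CI −0.37 to 0.60), and the sign of both turned when 1 or another library was left out.

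*Nr4a2* (ENSMUSG00000026826, chr2:57106830-57124003, minus strand), which encodes NURR1, lay the other way, at 8.95 and 10.9 CPM with isotype, 21.1 and 12.3 CPM with anti-PD1, and 8.86 and 12.3 CPM with anti-*Lag3*. The first anti-PD1 sample stood above all the others, and the second was level with the second anti-*Lag3* sample at the digits given, so that the groups are counted as not overlapping by a margin too small to print. These values rest on 19 and 27 reads, 44 and 30 reads, and 21 and 33 reads. The log2 fold change between anti-PD1 and isotype was 0.73 (SE 0.40, 95% CI −0.07 to 1.54, adjusted p = 0.686, edgeR), and between anti-PD1 and anti-*Lag3* it was 0.64 (SE 0.39, 95% CI −0.15 to 1.43). Without the first anti-PD1 sample, the estimate against isotype was 0.30, the lowest of those with a sample left out.

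Within a sample, the ratio of a member to *Nr4a3* does not depend on library size. On the log2 scale, with a prior count of 2, the ratio of *Nr4a2* to *Nr4a3* was −2.41 and −1.97 with isotype, −0.48 and −1.21 with anti-PD1, and −2.11 and −1.52 with anti-*Lag3*. Anti-PD1 and isotype differed by 1.35 in the mean and did not overlap (two-sided exact permutation p = 0.333, the smallest that 2 samples against 2 can give). The ratio of *Nr4a1* to *Nr4a3* differed by 0.50 between them, with values from −0.44 to 0.04 with isotype and from 0.04 to 0.56 with anti-PD1. Since *Nr4a3* is the denominator and was itself lowest with anti-PD1, every ratio moves up there by the same amount, and the ratios show only how far a member and *Nr4a3* moved apart. The ratio to *Nr4a3* was higher in both anti-PD1 samples than in both isotype samples for 4 of 8 members, beside 72.6% of all other tested genes, and lower in both for 0 of 8. Set against each other, *Nr4a2* to *Nr4a1* was −1.03 and −1.25 with anti-PD1, above all other samples, at −2.45 and −1.53 with isotype and −2.03 and −2.04 with anti-*Lag3*.

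**Figure D3:**
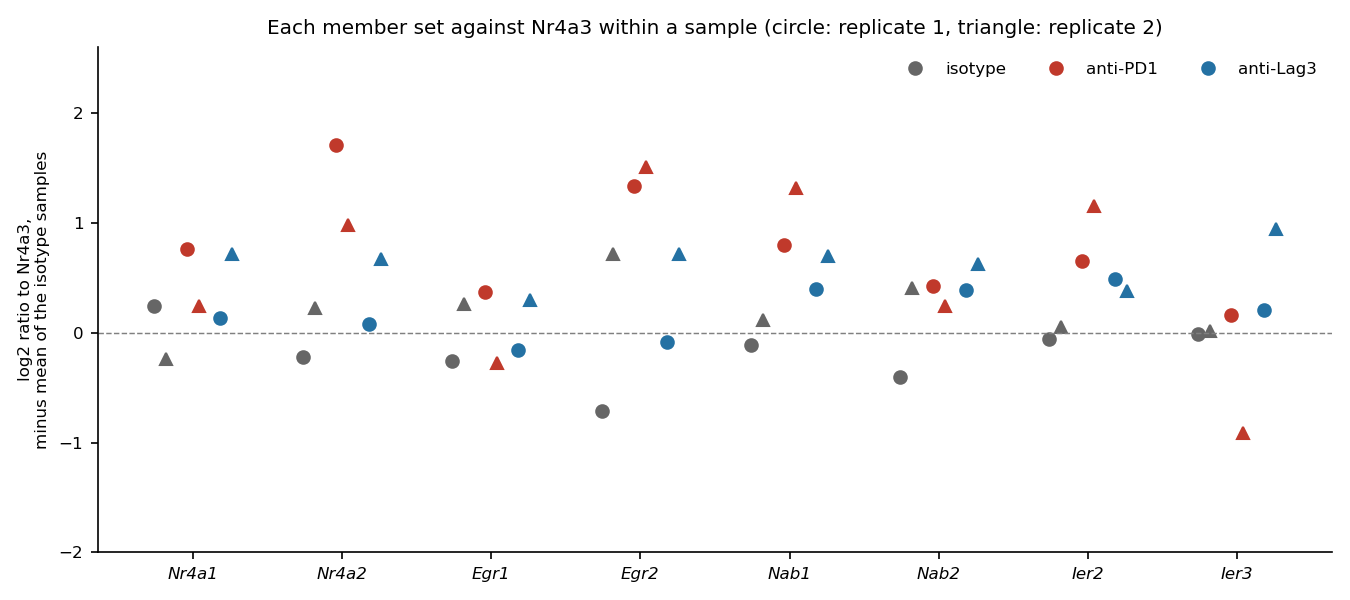
Log2 ratio of each member to *Nr4a3* within each sample, minus the mean of the 2 isotype samples (vertical axis), for 8 members (horizontal axis), with colours for the groups, circles for replicate 1 and triangles for replicate 2. Both anti-PD1 samples lie above both isotype samples for *Nr4a2*, *Egr2*, *Nab1* and *Ier2*, as for 72.6% of all other tested genes. For *Egr1* the anti-PD1 samples lie on both sides of the isotype samples, and *Ier3* rests on 0 to 8 reads a sample.

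*Egr1* (ENSMUSG00000038418), a classic target of ERK signaling, lay on the same side as *Nr4a3* with anti-PD1. It had 44.8 and 56.8 CPM with isotype, 40.7 and 25.4 CPM with anti-PD1, and 38.4 and 47.9 CPM with anti-*Lag3*. The anti-PD1 samples lay under both isotype samples, and the anti-*Lag3* samples overlapped both groups. The log2 fold change between anti-PD1 and isotype was −0.64 (SE 0.24, 95% CI −1.12 to −0.15, unadjusted p = 0.0111, adjusted p = 0.345, edgeR), a fold of 0.644. Leaving out 1 sample at a time gave −1.0 to −0.32, and the sign was negative in all 16 settings. Against anti-*Lag3*, the log2 fold change with anti-PD1 was −0.40 (SE 0.24, 95% CI −0.89 to 0.08). The ratio of *Egr1* to *Nr4a3* differed by 0.05 between anti-PD1 and isotype, with a mean of 0.12 ± 0.46 against 0.07 ± 0.37 (SD, n = 2 each).

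*Egr2* (ENSMUSG00000037868, chr10:67535475-67542188, plus strand), a factor associated with T cell anergy, was near the floor, with 4 and 14 reads in the isotype samples, 12 and 16 reads in the anti-PD1 samples, and 6 and 12 reads in the anti-*Lag3* samples. These correspond to 1.88 and 5.64 CPM, 5.75 and 6.54 CPM, and 2.53 and 4.46 CPM. Both anti-PD1 samples were highest, although the second isotype sample lay close below them. The log2 fold change between anti-PD1 and isotype was 0.68 (SE 0.68, 95% CI −0.69 to 2.04), an interval that runs from 0.621 to 4.11 times the isotype level. It was 0.13 without the first isotype sample and 1.68 without the second. The ratio of *Egr2* to *Egr1* was −2.66 and −1.83 with anti-PD1, above −4.06 and −3.15 with isotype and −3.54 and −3.20 with anti-*Lag3*. *Egr3* (ENSMUSG00000033730, chr14:70077203-70082614, plus strand), its close relative in T cells, had 0 reads in each of the 6 libraries, which allows up to 1.11 to 1.44 CPM a sample, and *Egr4*, the remaining gene of the EGR family, had 0 to 3 reads a sample.

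*Nab1* (ENSMUSG00000002881, chr1:52457294-52500679, minus strand), the co-repressor that is expressed in many tissues without induction, had 74.9 and 77.7 CPM with isotype, 82.9 and 118 CPM with anti-PD1, and 85.6 and 95.1 CPM with anti-*Lag3*. Both treated groups lay above both isotype samples, and they overlapped each other. The log2 fold change between anti-PD1 and isotype was 0.40 (SE 0.17, 95% CI 0.06 to 0.75, unadjusted p = 0.0241, adjusted p = 0.477, edgeR), and it was 0.12 without the second anti-PD1 sample. Between anti-*Lag3* and isotype it was 0.24 (SE 0.17, 95% CI −0.10 to 0.59).

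*Nab2* (ENSMUSG00000025402, chr10:127660918-127668568, minus strand), the inducible co-repressor, had 40.1 and 62.4 CPM with isotype, 41.7 and 36.4 CPM with anti-PD1, and 55.7 and 59.4 CPM with anti-*Lag3*. The anti-PD1 samples lay below the anti-*Lag3* samples, and each group overlapped isotype. Between anti-PD1 and anti-*Lag3* the log2 fold change was −0.56 (SE 0.22, 95% CI −1.0 to −0.12, unadjusted p = 0.0134, adjusted p = 0.568, edgeR), and between anti-PD1 and isotype it was −0.40 (SE 0.22, 95% CI −0.85 to 0.04). The latter ran from −0.68 to −0.04 with 1 sample left out, and was nearest to 0 without the second isotype sample. It was the one member whose annotated span overlaps other genes, all on the opposite strand: *Stat6*, with 40 bases of shared exon, *Nemp1*, with 151, and *Gm16229*, with 1050. The strand setting of the read counting is not given in the sources used here. *Stat6* had a log2 fold change of 0.21 (adjusted p = 0.892) and *Nemp1* of −0.11 (adjusted p = 0.974) between anti-PD1 and isotype (edgeR).

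Within a sample, the log2 ratio of *Nab1* to *Nab2* was 0.98 and 1.68 with anti-PD1, above 0.89 and 0.31 with isotype and 0.61 and 0.67 with anti-*Lag3*. *Nab1* to *Egr1* was 1.01 and 2.18 with anti-PD1, above the isotype samples at 0.73 and 0.45 and on both sides of the anti-*Lag3* samples at 1.14 and 0.98. *Nab2* to *Egr1* overlapped, at 0.03 and 0.51 with anti-PD1, −0.16 and 0.13 with isotype, and 0.53 and 0.31 with anti-*Lag3*. These pairs, and *Nr4a2* to *Nr4a1* and *Egr2* to *Egr1* above, were a choice, and other pairs of genes were not counted. The ratio of *Nab1* to *Nr4a3* differed by 1.06 between anti-PD1 and isotype and by 0.54 between anti-*Lag3* and isotype, without overlap in either (exact permutation p = 0.333 each). That of *Nab2* to *Nr4a3* differed by 0.33 between anti-PD1 and isotype, with overlap. Against isotype, the ratio to *Nr4a3* was higher without overlap for 72.6% of all other tested genes with anti-PD1. With anti-*Lag3* this share was 43.4%.

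*Ier2* (ENSMUSG00000053560, chr8:84661331-84662852, minus strand), an immediate early gene whose product acts in the nucleus, had 30.6 and 29.0 CPM with isotype, 29.2 and 41.3 CPM with anti-PD1, and 35.8 and 29.7 CPM with anti-*Lag3*. All groups overlapped, and the log2 fold changes were 0.25 (95% CI −0.26 to 0.77) for anti-PD1 and 0.14 (95% CI −0.38 to 0.65) for anti-*Lag3*, each against isotype. Its ratio to *Nr4a3* was higher by 0.90 with anti-PD1 than with isotype, without overlap, as was that of 72.6% of all other tested genes. *Ier3* (ENSMUSG00000003541, chr17:35821684-35822923, plus strand), known for modulating cell survival and ERK activity, had 4 and 4 reads with isotype, 2 and 0 reads with anti-PD1, and 4 and 8 reads with anti-*Lag3*. The summed reads of anti-PD1 gave a ratio to isotype of 0.254 (exact 95% interval 0.0263 to 1.27) and a ratio to anti-*Lag3* of 0.186 (0.0202 to 0.836), intervals that cover counting error and not the spread between samples. In the edgeR fit, the log2 fold change with anti-PD1 was −1.83 (95% CI −4.81 to 1.15) against isotype. Against anti-*Lag3* it was −2.25 (95% CI −5.13 to 0.63), and both intervals include 0.

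**Figure D4:**
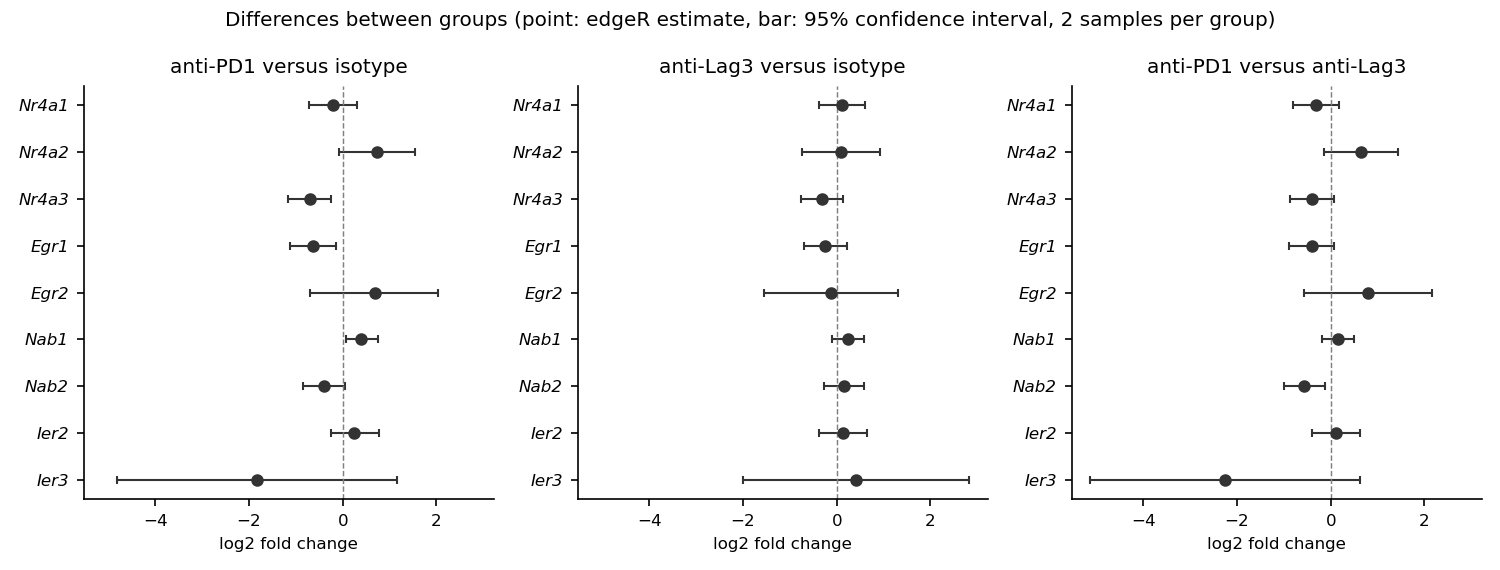
Log2 fold changes of the 9 tested members (horizontal axes) in the 3 comparisons, with points for the edgeR estimates and bars for 95% confidence intervals. Intervals that leave out 0 are those of *Nr4a3*, *Egr1* and *Nab1* between anti-PD1 and isotype and of *Nab2* between anti-PD1 and anti-*Lag3*, and those of *Egr2* and *Ier3* are the widest.

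Across the 27 log2 fold changes of the members, 16 alternative settings gave 429 values, and 0 of them passed the threshold. In the deposited rlog values, a regularised log2 scale, the order of the 3 group means was the same as in CPM for 9 of 9 members.

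Other genes of the same response were read from 3 lists, assembled with earlier results of these data known, and 9 of their genes passed the test in some comparison. For all 3 lists, the shares set beside those of all genes therefore describe the genes chosen. They do not test whether a list responded more than other genes. Of 34 tested genes among 36 other early response genes, 3 rose and 0 fell with anti-PD1 against isotype (8.82% called, beside 0.631% of all genes called higher), with a median log2 fold change of 0.19. *Dusp5*, a phosphatase of nuclear ERK that is itself induced by ERK, rose by 0.88 (SE 0.17, adjusted p = 0.00114), the zinc finger factor *Klf6* by 0.90 (adjusted p = 0.00699), and the repressor *Bhlhe40* by 0.69 (adjusted p = 0.0305), all from edgeR. Among those that did not pass were *Fos*, at −0.83, *Jun*, at 0.75, *Junb*, at 0.48, and *Myc*, at −0.05. Between anti-PD1 and anti-*Lag3*, 1 of 34 rose (*Klf6*, by 0.99, adjusted p = 0.00630, edgeR), beside 0.244% of all genes called higher, and between anti-*Lag3* and isotype 0 of 34 passed, with 5 at an unadjusted p under 0.05.

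Among 28 kinases, phosphatases and factors that act upstream of NR4A and EGR transcription, 2 rose and 2 fell with anti-PD1 against isotype (14.3% called, beside 0.901% of all genes), with a median of −0.05. *Hdac7*, a class IIa histone deacetylase that represses *Nr4a1* together with MEF2 in T cells, had 554 and 546 CPM with isotype, 312 and 278 CPM with anti-PD1, and 348 and 396 CPM with anti-*Lag3*. It fell by 0.90 with anti-PD1 (adjusted p = 3.45e-07, edgeR), beside 0.269% of all genes called lower, and by 0.56 with anti-*Lag3* (adjusted p = 0.0161, edgeR), beside 0.0168%. *Nfatc1*, the inducible NFAT factor, had 209 and 244 CPM with isotype, 160 and 139 CPM with anti-PD1, and 184 and 222 CPM with anti-*Lag3*, and fell by 0.60 with anti-PD1 (adjusted p = 0.00831, edgeR). *Crem*, a CREB family gene with activating and repressing isoforms, had 25.4 and 9.26 CPM with isotype, 59.9 and 63.0 CPM with anti-PD1, and 27.4 and 37.9 CPM with anti-*Lag3*, and rose by 1.85 (adjusted p = 5.65e-05, edgeR). *Elk1*, a partner of the serum response factor, had 3.77 and 5.64 CPM with isotype, 18.2 and 19.6 CPM with anti-PD1, and 7.59 and 7.06 CPM with anti-*Lag3*, and rose by 1.98 (adjusted p = 0.00896, edgeR). The 3′ counts do not separate isoforms. In this list 1 gene passed between anti-*Lag3* and isotype and 0 of 28 between anti-PD1 and anti-*Lag3*, where 4 had an unadjusted p under 0.05.

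Of 24 tested genes among 28 described as targets of EGR2, EGR3 or NR4A factors in T cells, 2 rose and 0 fell with anti-PD1 against isotype, with a median of 0.09. The share called was 8.33%, beside 0.901% of all genes called in either direction and 0.631% called higher. In this list 15 had an unadjusted p under 0.05, beside 8.12% of all genes. *Cblb*, a ubiquitin ligase that limits T cell activation, had 141 and 99.0 CPM with isotype, 215 and 245 CPM with anti-PD1, and 162 and 140 CPM with anti-*Lag3*. It rose by 0.95 against isotype (adjusted p = 5.51e-05) and by 0.61 against anti-*Lag3* (adjusted p = 0.0420, edgeR). *Tnfrsf9*, the co-stimulatory receptor 4-1BB, rose by 1.05 against isotype (adjusted p = 0.000518) and by 0.89 against anti-*Lag3* (adjusted p = 0.0116, edgeR), from 59.4 and 64.8 CPM with isotype and 88.6 and 51.6 CPM with anti-*Lag3* to 117 and 140 CPM with anti-PD1. The other 22 had values on both sides of 0, for example *Tox* at −0.92, *Dtx1* at −1.35, *Socs3* at 0.94 and *Il2* at 1.15. Between anti-*Lag3* and isotype 0 of 24 passed, with 4 at an unadjusted p under 0.05.

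The calls of *Hdac7*, *Crem* and *Cblb* between anti-PD1 and isotype held in all 16 alternative settings. Those of *Dusp5*, *Klf6*, *Bhlhe40*, *Elk1*, *Nfatc1* and *Tnfrsf9* did not. DESeq2 with all samples ended those of *Klf6*, *Bhlhe40* and *Elk1* (adjusted p = 0.104, 0.182 and 0.106). Leaving out the second isotype sample or 1 of the anti-PD1 samples ended each of the 6 calls at least once, and leaving out the first isotype sample also ended that of *Elk1*, with adjusted p up to 0.102, 0.411, 0.497, 0.166, 0.360 and 0.0732 over the settings, in that order. The calls of *Klf6*, *Cblb* and *Tnfrsf9* between anti-PD1 and anti-*Lag3* and that of *Hdac7* between anti-*Lag3* and isotype were also lost in some settings.

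**Figure D5:**
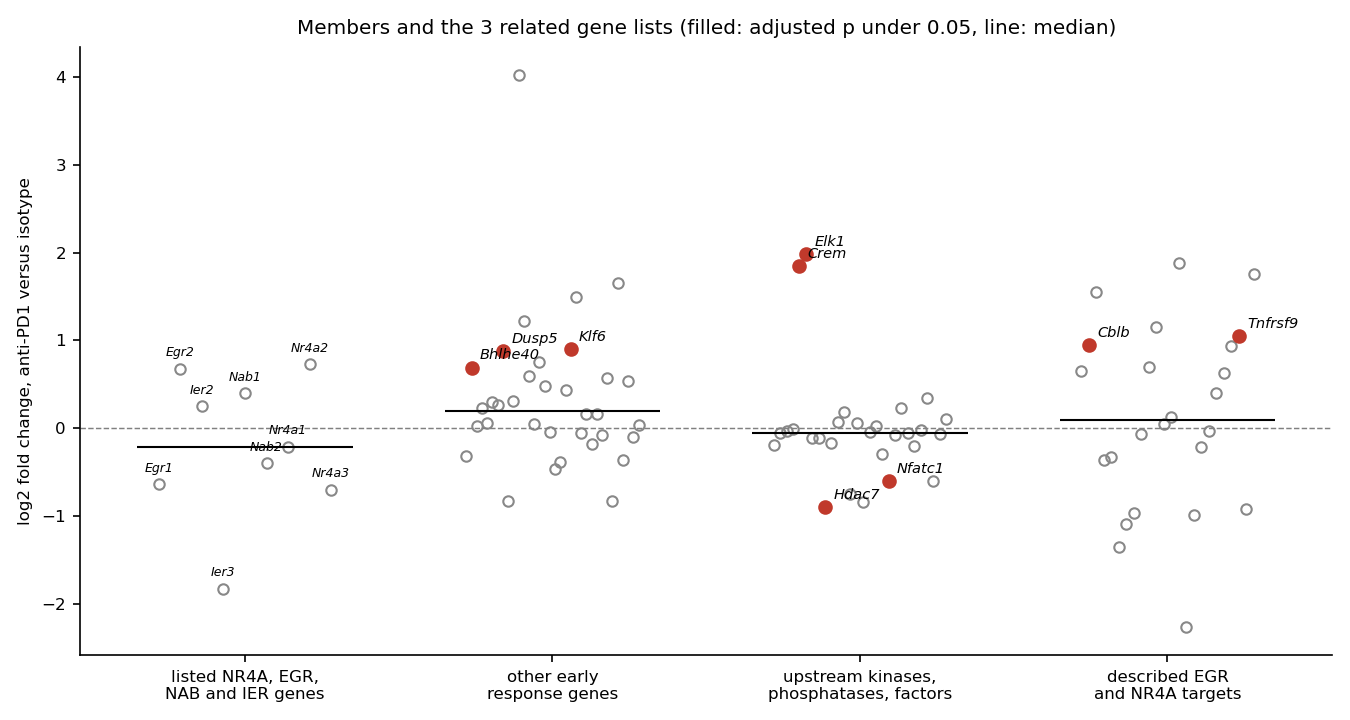
Log2 fold change between anti-PD1 and isotype (vertical axis) of the 9 tested members and of the tested genes of the 3 lists (columns, genes in alphabetical order), with filled points for genes at an adjusted p under 0.05 and a line at each median. No member is filled, while 3 early response genes, 4 upstream genes and 2 described targets are.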

How the data were processed

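RNA of 6 sorted samples was measured by 3′ mRNA sequencing (Lexogen QuantSeq, forward). The authors trimmed reads with BBduk, aligned them to GRCm38 (mm10) with STAR 2.5.2a and counted them with HTSeq, and they deposited raw read counts per Ensembl gene. The authors' second table holds log2 values from the rlog transform of DESeq2. All columns of both tables were used. Genes were named from GENCODE M21, which matched 47224 of 47643 identifiers (*Mkl1* and *Mkl2* as Mrtfa and Mrtfb).

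Counts were fitted for all 6 samples with edgeR 4.0.16 in R 4.3.3 (TMM scaling, genes with at least 10 reads in all, quasi-likelihood F test, Benjamini-Hochberg adjustment over 11877 genes, threshold 0.05). The common dispersion was 0.016 and the prior carried 37.2 degrees of freedom. Within groups, the ratio of chi-square to its degrees of freedom over genes was 2.65 to 3.29, above sampling noise, and replicates were kept apart. Ratios were formed on log2 CPM (prior count 2) and compared by a two-sided exact permutation test (scipy 1.17.1). Alternatives used DESeq2 1.42.0 and limma 3.58.1, among others given with their effects. Figures were drawn with matplotlib 3.10.9.

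The members and lists were chosen with earlier results of these data known. Genes named are the 10 members, genes overlapping them, the 5 genes nearest to *Nr4a3* in profile, and list genes that passed the test, with a few list members that did not pass and *Egr4* named after their values were seen.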

Additional observations from a re-analysis of the deposited data

How the results depend on the processing

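No member passed the threshold in any of the 16 alternative settings, which were DESeq2, limma-voom, the samples of a comparison alone, 2 other scalings, 2 other filters, a threshold of 0.1, the newer quasi-likelihood method of edgeR, the replicate number as a block, and each of the 6 samples left out in turn. Of the 429 values of members, 414 kept their direction. The other 15, all with 1 sample left out, turned the sign of 10 log2 fold changes, whose ranges over the samples left out were −0.51 to 0.17 for *Nr4a1* and −0.03 to 0.47 for *Ier2* between anti-PD1 and isotype, −0.19 to 0.48 for *Nr4a1*, −0.16 to 0.29 for *Nr4a2*, −0.67 to 0.88 for *Egr2*, −0.11 to 0.52 for *Nab2*, −0.01 to 0.27 for *Ier2* and −0.04 to 0.75 for *Ier3* between anti-*Lag3* and isotype, and −0.13 to 0.39 for *Nab1* and −0.17 to 0.34 for *Ier2* between anti-PD1 and anti-*Lag3*. Among the list genes, *Klf6* ranged from −0.51 to 0.24 and *Tnfrsf9* from −0.27 to 0.52 between anti-*Lag3* and isotype. Where a group was left with 1 sample, that sample is assumed to vary like the others.

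Counts over all genes moved more. The 107 genes called between anti-PD1 and isotype became 175 with the samples of the comparison alone and 166 at a threshold of 0.1, and 53 to 185 with a sample left out (53 without the second isotype sample, 60 and 55 without the first and second anti-PD1 samples, 185 and 178 without the first and second anti-*Lag3* samples). The 5 genes called between anti-*Lag3* and isotype became 1 with DESeq2, 0 with the samples of the comparison alone, with filterByExpr and with the newer quasi-likelihood method, 20 with no filter beyond 1 read, and 0 to 19 with a sample left out. The 36 genes called between anti-PD1 and anti-*Lag3* became 16 with DESeq2, 58 with no filter beyond 1 read, and 7 to 59 with a sample left out. The cause was not tested. With a prior count of 0.5 in place of 2, the members whose ratio to *Nr4a3* was higher in both anti-PD1 than in both isotype samples numbered 5 of 8 in place of 4, beside 69.7% of all other tested genes, and those lower in both numbered 1 in place of 0.

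The methods describe the excluded samples as a replicate batch of 3 that was sorted and processed together. For the samples kept, the sources used here do not say whether a replicate number marks a shared sort or day. Deviations of same-numbered samples from their group means correlated at 0.021, 0.018 and −0.01 over the tested genes. Genes with few reads are included, and counting noise lowers such correlations, so these values cannot exclude a shared sort or day. With the replicate number as a block, 144, 6 and 46 genes were called in the 3 comparisons and 0 members. Depth limits *Egr2*, *Ier3* and *Egr3*, with at most 16 reads in a sample.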
